A study of Mus musculus with 6 samples.

Results

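The glucocorticoid receptor gene Nr3c1 and 5 of the classic target genes of that receptor (Sgk1, Tsc22d3, Fkbp5, Per1 and Klf9) were followed. The cells were labelled as blood monocytes and came from thrombocytopenic and control mice. The 6 genes were found by symbol among the 56832 genes counted, and all 6 passed the filter on low counts that left 12488 genes for testing. The set was selected on the CPM values of Sgk1, whose difference between the groups was already known, and was filled with the receptor and its textbook targets. Their differences between the groups are therefore a description: how many were called is printed beside the share of all genes called, and nothing is read from it.

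The study sequenced polyadenylated RNA of cells labelled as monocytes from peripheral blood of mice, in 6 libraries. Thrombocytopenic mice (3 libraries) were PF4cre-iDTR: Cre driven by the promoter of Pf4, a gene of megakaryocytes and platelets, switches on a receptor for diphtheria toxin. Control mice (3 libraries) were wild type (WT), and the labels name the toxin as treatment for them as well. The labels used here give neither age, nor time after toxin, nor the animals behind a library. A p-value therefore covers the spread among the libraries alone, and that spread may be technical. Genotype and platelet state cannot be told apart.

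Glucocorticoids are steroid hormones that cross the membrane and bind a receptor held in the cytoplasm by the chaperone Hsp90 and its partners. The bound receptor moves to the nucleus, where it can bind a palindromic DNA element and raise transcription of nearby genes, and it also dampens the transcription of many inflammatory genes. In monocytes and macrophages the hormone is known for its anti-inflammatory action. Sgk1 encodes a serine/threonine kinase related to Akt and is also known to respond to serum, osmotic stress and other signals besides the hormone.

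The libraries held 24842319 to 37552029 counts. CPM are counts scaled to the total of the library, and a gene was called higher or lower where edgeR's quasi-likelihood test over all genes gave a Benjamini-Hochberg adjusted p under 0.05. Of all 12488 genes, 45.1% were called, 22.4% higher and 22.7% lower. Summed over the fixed list, monocyte genes reached 21000 to 21200 CPM in the thrombocytopenic libraries and 18300 to 18700 CPM in the control libraries, and all 12 were detected. Lyz2, at 13710 against 11990 CPM, made up most of that sum. The list split, with 9 genes higher and 3 lower: Cx3cr1 at 11.5 against 52.2 CPM, Ly6c2 at 67.9 against 95.1 CPM and Fcgr1 at 514.5 against 650.2 CPM.

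Markers of other cells also differed, and members of a list did not always go the way of its sum. The counts called in these lists stand beside 22.4% of all genes called higher and 22.7% called lower. Neutrophil markers summed to 490 to 497 CPM in thrombocytopenic and 374 to 391 CPM in control libraries (14 genes, none at 0). Mmp8, at 322.5 against 227.3 CPM, and Csf3r, at 159 against 141 CPM, made up nearly all of it. Of the 8 tested 2 were higher, 1 (Ngp, a call lost in 5 of 15 other settings) was lower and 5 were not called, with a median log2 fold change of -0.15. Platelet markers summed to 1220 to 1290 CPM in thrombocytopenic and 1010 to 1060 CPM in control libraries (12 genes, Gp1bb at 0), almost all of it Pf4, at 1095 against 924 CPM, and Ppbp, at 150.7 against 95.2 CPM. The other 4 tested platelet genes were lower: Nrgn at 0.0179 against 3.69 CPM, Clec1b at 0.725 against 3.53 CPM, Itga2b at 0.343 against 0.863 CPM, and Gp9 with no read against 0.452 CPM. Dendritic cell markers were at 348 to 358 CPM in thrombocytopenic libraries and 466 to 484 CPM in control libraries (10 genes, none at 0). Bst2, at 212.6 against 279.7 CPM, and Tcf4, at 116.6 against 152.9 CPM, made up most of that sum. Flt3 averaged 0.695 against 1.71 CPM, and Siglech, Xcr1, Clec9a and Zbtb46 averaged less than Flt3 in both groups. Of the 8 tested dendritic cell genes, 7 were lower and none higher. T and NK cell markers were at 28.2 to 31.7 CPM in thrombocytopenic and 46.8 to 48.9 CPM in control libraries, with Cd3d, Cd3e, Cd3g and Ncr1 at 0 among 13 genes, and nearly all of the sum was Il7r, at 28.8 against 45.9 CPM. B cell markers summed to 13.5 to 15.3 CPM against 11.1 to 13.1 CPM (8 genes, none at 0), most of it Ighm, at 12.7 against 10.4 CPM. Basophil, eosinophil and mast cell markers summed to 5.82 to 7 CPM against 9.98 to 11.9 CPM (11 genes, Epx at 0). Most of the thrombocytopenic sum was Ccr3, which was higher, at 5.63 against 3.28 CPM. The other 4 tested genes of that list were lower: Mcpt8 at 0.118 against 2.27 CPM, Prss34 at 0.0987 against 2.64 CPM, Ms4a2 at 0.00932 against 0.721 CPM and Gata2 at 0.218 against 1.01 CPM. Erythroid markers stood at 0 to 0.056 CPM in thrombocytopenic and 1.89 to 2.42 CPM in control libraries (8 genes, with Alas2 and Slc4a1 among those at 0), and Hba-a1, with no read against 2.04 CPM, made up most of the control sum. The part of these differences in the results that follow was not tested.

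The 6 genes did not move together. Sgk1 was far below its control level in the thrombocytopenic libraries, Fkbp5 was moderately lower, and the receptor gene Nr3c1 was slightly higher. Tsc22d3, Per1 and Klf9 differed little. In the fit over all genes 1 of the 6 (Nr3c1) was called higher and 2 (Sgk1 and Fkbp5) lower, where 45.1% of all genes were called, 22.4% higher and 22.7% lower. Sgk1 was the gene the set was built on, so its place in these counts was fixed by that choice, and the counts support nothing about the set. With a change of at least 1.5-fold as well, the 2 lower genes and no higher gene were called, where 9.63% of all genes were (2.8% higher and 6.83% lower). The groups' libraries did not overlap for 4 of the 6 genes and for 51.3% of all genes. The median log2 fold change of the 6 genes was 0.09, and that of all genes -0.00077.

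**Figure D1:**
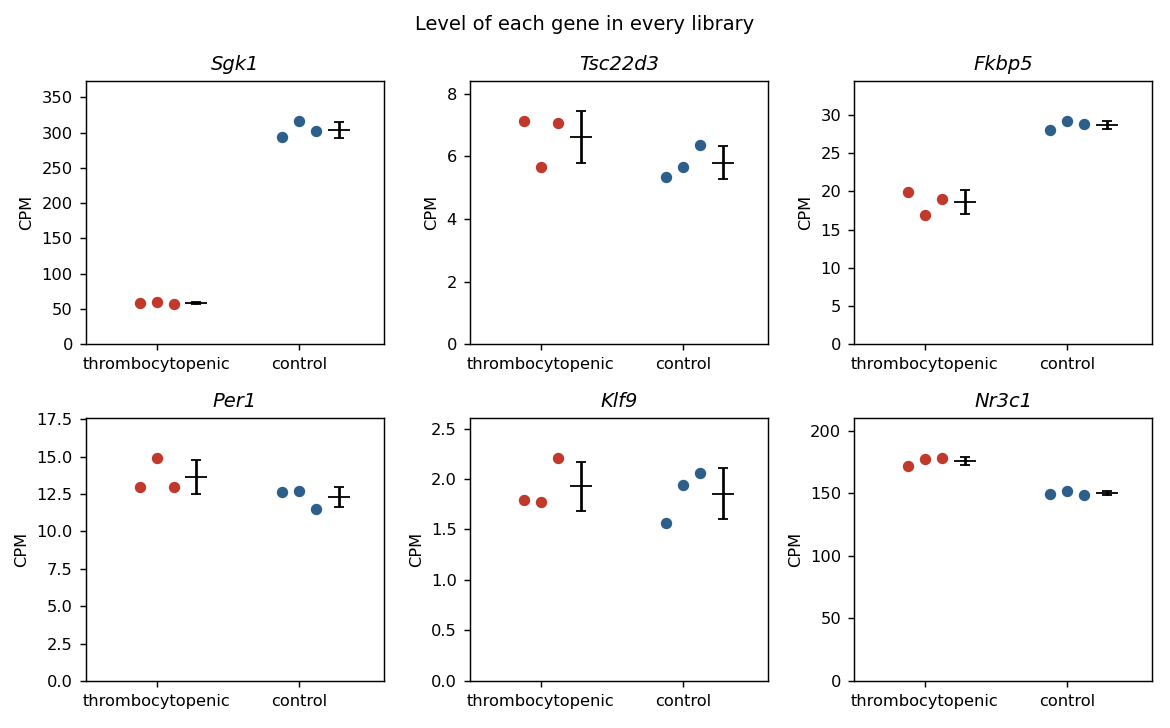
CPM of each gene (vertical axes, from 0) in the 3 thrombocytopenic and 3 control libraries. Points are libraries and the bars beside them the mean ± SD; Sgk1 lies at 57.0 to 60.2 CPM in the thrombocytopenic libraries and at 294 to 316 CPM in the control libraries, while the points of Tsc22d3 and Klf9 overlap between groups.

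Sgk1 was measured at 58.8, 60.2 and 57.0 CPM in the thrombocytopenic libraries (replicates 1 to 3) and at 294, 316 and 302 CPM in the control libraries. All thrombocytopenic libraries lay far below all control libraries, and the lowest control library was 4.88 times the highest thrombocytopenic one. The means were 58.7 ± 1.56 CPM and 304 ± 11.4 CPM (SD, n = 3 each), a log2 fold change of -2.38 (SE 0.033), or 5.19-fold lower. Ranked from the most negative, this was place 51 among the 12488 log2 fold changes. Between 1795 and 2193 reads per thrombocytopenic library and 7308 and 11385 per control library stood behind these values. The coefficient of variation was 2.66% in the thrombocytopenic group, near the 2.24% that counting alone gives, and 3.75% in the control group, above the 1.06% from counting. In bulk RNA, fewer cells carrying the transcript and less of it per cell cannot be told apart.

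**Figure D2:**
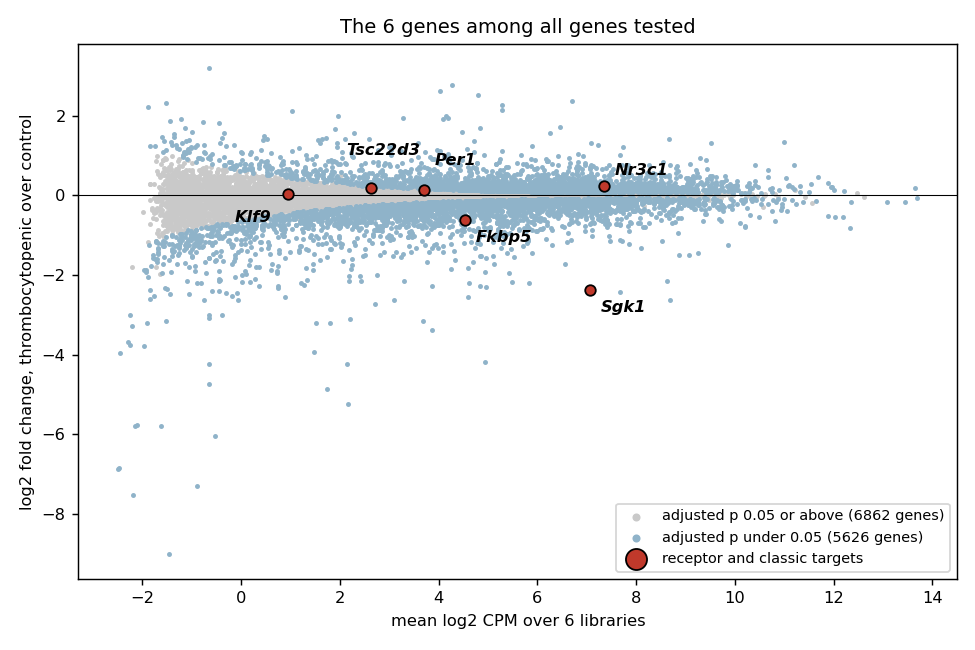
Log2 fold change (vertical, thrombocytopenic over control) against mean log2 CPM over the 6 libraries (horizontal) for the 12488 genes tested, 5626 of them with an adjusted p under 0.05. The 6 named genes are outlined points: Sgk1 lies at -2.38, apart from most genes of its level, Fkbp5 at -0.62, and the other 4 between 0.05 and 0.23.

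Sgk1 lies on mouse chromosome 10 (chr10:21882184-21999903, plus strand, GENCODE M21 on GRCm38), and none of its exon bases overlapped an exon of another gene there. RefSeq gives 6 start windows for it on GRCm38.p6, each of 300 bases (250 before the start and 50 after). The counts are per gene and do not tell which start was used. The windows were searched on both strands for the receptor's palindromic element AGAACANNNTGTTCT, for its single arm AGAACA, which is part of the palindrome, and for the E-box CACGTG bound by clock factors. Window 5 of Sgk1 held a complete palindrome, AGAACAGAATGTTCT, at chr10:21993701-21993715. It lies 189 bases before the transcription start site in window 5 and 965 bases before the one in window 6. Only 3 of 32851 RefSeq windows, or 0.00913%, held that element (the other two belong to Acnat2 and Gm35041), against 19.0% for AGAACA and 7.15% for CACGTG. Windows were found for 5 of the 6 genes, 13 in all. The arm AGAACA was also present in windows 1 and 4 of Sgk1 and in the first of 3 windows of Tsc22d3. It was not found in the windows of Fkbp5, Per1 or Klf9. CACGTG was present in the Fkbp5 window and in the first of 2 Per1 windows. A match describes these letters and is not evidence of binding. Only exact letters within these windows were searched, so an absence says nothing of variant or more distant sites.

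Windows 5 and 6 of Sgk1 are shown because they differ in the element, and that of Fkbp5 because its level was also lower. That of Tsc22d3 is shown because it carries the arm while the gene's groups overlapped. Whether these letters bear on the levels was not tested. Sequences are from RefSeq, 5′ to 3′ on the gene's strand, with AGAACA or its reverse complement, the palindrome and CACGTG in capitals. In window 5 of Sgk1 CACGTG overlaps the first TGTTCT.
Sgk1 window 5, chr10:21993640-21993939, plus strand: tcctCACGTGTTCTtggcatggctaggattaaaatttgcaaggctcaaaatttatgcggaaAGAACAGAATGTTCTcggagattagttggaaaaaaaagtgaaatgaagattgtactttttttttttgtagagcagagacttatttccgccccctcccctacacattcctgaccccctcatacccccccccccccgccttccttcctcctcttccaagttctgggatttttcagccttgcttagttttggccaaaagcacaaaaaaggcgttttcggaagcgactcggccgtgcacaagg
Sgk1 window 6, chr10:21994416-21994715, plus strand: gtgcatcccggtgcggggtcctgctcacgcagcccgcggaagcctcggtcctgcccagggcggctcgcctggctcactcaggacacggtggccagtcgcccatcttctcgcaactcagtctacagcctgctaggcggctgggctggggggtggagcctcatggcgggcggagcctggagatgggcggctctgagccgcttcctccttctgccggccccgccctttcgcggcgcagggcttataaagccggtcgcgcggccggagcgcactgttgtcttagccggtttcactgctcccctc
Fkbp5 window, chr17:28486100-28486399, minus strand: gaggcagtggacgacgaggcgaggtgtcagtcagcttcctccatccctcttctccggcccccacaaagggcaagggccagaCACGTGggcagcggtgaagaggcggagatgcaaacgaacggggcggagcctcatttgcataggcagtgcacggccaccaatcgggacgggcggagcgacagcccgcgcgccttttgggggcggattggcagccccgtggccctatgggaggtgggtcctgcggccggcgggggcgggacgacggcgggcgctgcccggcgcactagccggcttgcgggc
Tsc22d3 first window, chrX:140600473-140600772, minus strand: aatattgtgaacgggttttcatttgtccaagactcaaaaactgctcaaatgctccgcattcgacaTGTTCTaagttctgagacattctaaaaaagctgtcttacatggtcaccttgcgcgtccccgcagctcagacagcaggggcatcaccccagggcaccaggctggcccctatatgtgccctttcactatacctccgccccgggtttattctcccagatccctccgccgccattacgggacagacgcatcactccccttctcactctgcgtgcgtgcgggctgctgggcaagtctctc

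Nr3c1, the receptor itself, was measured at 172, 177 and 178 CPM in thrombocytopenic libraries and at 149, 152 and 148 CPM in control libraries. The groups did not overlap, and the difference was small. The means were 175.7 ± 3.24 CPM and 149.8 ± 1.57 CPM (SD, n = 3 each; log2 fold change 0.23, SE 0.029). Its variation was the lowest of the 6 genes in both groups, at 1.84% and 1.05%. Within a library, the ratio of Sgk1 to Nr3c1 CPM does not depend on the scaling between libraries. It was 0.342, 0.34 and 0.32 in thrombocytopenic libraries, against 1.97, 2.09 and 2.04 in control libraries. The set was selected on the CPM of Sgk1, so a lower ratio was fixed by that choice and nothing is read from it.

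Fkbp5 encodes a co-chaperone of the receptor that lowers its affinity for hormone, and its induction forms a feedback loop. It was measured at 19.99, 16.9 and 19.0 CPM in thrombocytopenic libraries and at 28.1, 29.2 and 28.8 CPM in control libraries. The groups did not overlap. The means were 18.6 ± 1.58 CPM and 28.7 ± 0.563 CPM (SD, n = 3 each), a log2 fold change of -0.62 (SE 0.057). Thrombocytopenic libraries varied by 8.49%, against 1.96% in control libraries. The ratio of Fkbp5 to Nr3c1 CPM was 0.0955 to 0.116 in thrombocytopenic libraries and 0.188 to 0.194 in control libraries.

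Tsc22d3 encodes GILZ, a leucine zipper protein that carries part of the anti-inflammatory action of glucocorticoids in macrophages. It was measured at 7.13, 5.66 and 7.08 CPM in thrombocytopenic libraries and at 5.34, 5.67 and 6.38 CPM in control libraries. Thrombocytopenic replicate 2 lay within the control range and the other two above it. The log2 fold change was 0.20 (SE 0.105), and 0.29 without that library. The same library was also the lowest of its group for Fkbp5 and Klf9, and the highest for Sgk1 and Per1. Variation was 12.5% in the thrombocytopenic and 9.14% in the control group, above the 6.70% and 7.69% from counting.

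Per1, a repressor of the circadian clock with a glucocorticoid-responsive promoter, was measured at 12.9, 14.9 and 13.0 CPM in thrombocytopenic libraries and at 12.6, 12.7 and 11.5 CPM in control libraries. The groups did not overlap, but the lowest thrombocytopenic library was only 1.02 times the highest control library. The log2 fold change was 0.14 (SE 0.073). Klf9, a zinc finger transcription factor, was the least abundant of the 6. It was measured at 1.80, 1.78 and 2.21 CPM in thrombocytopenic libraries and at 1.57, 1.94 and 2.06 CPM in control libraries. Its groups overlapped, and with 39 to 79 reads per library its variation of 12.7% and 13.8% was close to the 12.4% and 13.7% from counting. A difference of the size of that in Nr3c1 would not have been detectable for Klf9 at this depth (log2 fold change 0.05, SE 0.187).

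Per kilobase of merged GENCODE M21 exon, which may not be the annotation behind the counts, the order of the genes differed between groups. In thrombocytopenic libraries Nr3c1 led with 22.9 CPM per kilobase, followed by Sgk1 with 12, Per1 with 2.42, Fkbp5 with 1.97, Tsc22d3 with 1.53 and Klf9 with 0.40. In control libraries Sgk1 led with 62.0 CPM per kilobase, followed by Nr3c1 with 19.5, Fkbp5 with 3.03, Per1 with 2.18, Tsc22d3 with 1.34 and Klf9 with 0.386. Neighbours in either order did not overlap in their libraries. The closest pair was Fkbp5, at 1.78 to 2.11 CPM per kilobase, and Tsc22d3, at 1.3 to 1.64, in thrombocytopenic libraries.

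Genes near each of the 6 in profile were sought as a description. The measure was the root mean square difference of log2 CPM over the 6 libraries, each gene centred on its own mean. It was taken among 10330 tested genes that averaged at least 1 CPM over the 6 libraries. Symbols of the kind given to predicted genes, clones and pseudogenes were left out beforehand. The 5 nearest were mt-Rnr1, the small mitochondrial ribosomal RNA (0.064), S1pr1, a sphingosine 1-phosphate receptor (0.075), Cx3cr1, the fractalkine receptor (0.113), Clec1b, the podoplanin receptor CLEC-2 and a member of the platelet marker list (0.12), and Lhfpl2 (0.124). Cx3cr1 is also in the monocyte list. Clec1b was among the genes compared only through its control level (0.725 CPM in thrombocytopenic, 3.53 CPM in control libraries). S1pr1 averaged 6.58 CPM in thrombocytopenic and 31.7 CPM in control libraries. The ribosomal RNA mt-Rnr1, counted here in libraries of polyadenylated RNA, averaged 88.5 and 472.9 CPM, and what lies behind its difference was not tested. Within a distance of 0.2 there were 18 genes for Sgk1, 1183 for Fkbp5 and 7081 for Nr3c1. The 3 nearest to Fkbp5 were Parvb, Cd83 and Ccnb1, and those to Nr3c1 were Pfkfb3, N4bp1 and Rlf. These distances describe likeness over 2 groups of 3 libraries and carry no test. They largely follow the fold change between the groups. The set was selected on Sgk1 with its difference known, so its low number of near genes comes with that choice.

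Other genes known to be induced by glucocorticoids in some tissue went both ways. Of 32 listed genes 25 were tested: 14 rose, 6 fell and 5 did not pass the test, so that 80% were called against 45.1% of all genes. By at least 1.5-fold 5 rose and 5 fell, where 2.8% of all genes were called higher and 6.83% lower. This list and those below were chosen with earlier results of these data known, so nothing is read from their shares. The median log2 fold change was 0.14. Cebpd, a transcription factor of myeloid cells, rose to 139 ± 5.13 CPM in thrombocytopenic libraries, against 71.8 ± 4.39 CPM in control libraries (SD, n = 3 each; log2 fold change 0.95, SE 0.037; edgeR adjusted p = 6.68e-25). Fgd4, an exchange factor for Cdc42, rose to 102.6 ± 2.10 CPM, against 59.4 ± 1.44 CPM (log2 fold change 0.79). Dusp1, the phosphatase that switches off p38 and JNK kinases, rose by 0.36 (SE 0.034) on the log2 scale. Lcn2, an iron-siderophore binding protein, rose by 0.70, Sesn1, a stress-induced inhibitor of mTORC1, by 0.64, Thbd, thrombomodulin, by 0.65, and Ddit4, another mTORC1 inhibitor, by 0.54. The call of Ddit4 was lost without control replicate 2, at 0.36. Cdkn1a, a cell cycle inhibitor, rose by 0.45, and the NF-kB feedback genes Tnfaip3 and Nfkbia rose by 0.33 and 0.26. Zfp36, Bcl6 and Glul rose by 0.14 to 0.18.

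Among the 6 listed genes that fell were Mertk, Rgs2, Il1rn, Mt2 and Mt1. Mertk, an efferocytosis receptor that macrophages raise under glucocorticoids, fell to 4.93 ± 0.140 CPM in thrombocytopenic libraries, against 14.1 ± 0.0915 CPM in control libraries (SD, n = 3 each; log2 fold change -1.51, SE 0.085; edgeR adjusted p = 7.06e-22). Rgs2, a brake on G protein signalling, had a log2 fold change of -1.09 and Il1rn, the interleukin 1 receptor antagonist, of -0.65. The metallothionein genes Mt2 and Mt1, near copies of each other, were at -0.62 and -0.45. Errfi1, Irs2 and Cd163 were among the 5 that did not pass, with log2 fold changes of 0.11, 0.11 and 0.35 (SE 0.064, 0.093 and 0.354). Anxa1, a glucocorticoid-induced mediator, was called at a log2 fold change of only 0.06, and the call was lost in 9 of 15 other settings. Zbtb16, a sensitive target in many tissues, had 5 reads over the thrombocytopenic libraries and 7 over the control libraries, and Il1r2 had 22 and 29, so that neither was tested. No read of Pdk4 was counted.

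**Figure D3:**
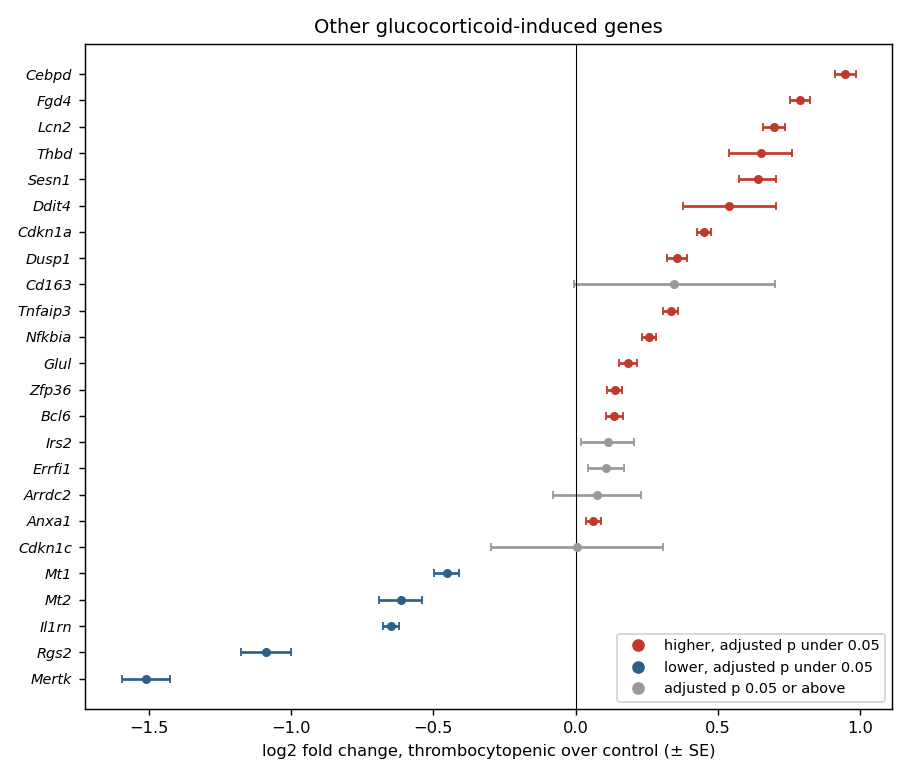
Log2 fold change ± SE (horizontal, thrombocytopenic over control) of 24 tested genes of the list of other glucocorticoid-induced genes, ordered by value. Red points were called higher (14), blue lower (5) and grey neither (5); they run from Mertk at -1.51 to Cebpd at 0.95.

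Inflammatory genes that glucocorticoids are known to repress also split. Of 22 tested genes of 24 listed, 14 rose and 7 fell, or 95.5% called against 45.1% of all genes, with a median log2 fold change of 0.51. By at least 1.5-fold 10 rose and 3 fell, where 2.8% of all genes were called higher and 6.83% lower. The smallest p-values were those of Ccl7 (-1.49), Ccl2 (-1.51), Nos2 (-1.31) and Il1b (1.32 on the log2 scale). The largest rise in the list was that of Ptgs2, at 1.41. Levels in the list ranged from Il23a, at 0.0875 CPM in thrombocytopenic against 0.0453 CPM in control libraries, to Cxcl10, at 3477 against 5030 CPM. Tnf averaged 1331 against 1122 CPM. Whether the cells of either group were in an activated state was not tested. Ccl2, Ccl7, Nos2 and Il1b respond to many other signals.

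Genes of the receptor's own machinery differed by small amounts. Of 23 chaperones and cofactors, all tested, 9 rose and 5 fell (3 fell without thrombocytopenic replicate 1), none by 1.5-fold, or 60.9% called against 45.1% of all genes, with log2 fold changes from -0.21 to 0.28. Ncor1, a corepressor of nuclear receptors, rose by 0.28 (SE 0.030) and the coactivator gene Ncoa2 by 0.27, while the coactivator gene Ncoa3 was at -0.21. Hsp90aa1, the inducible Hsp90, rose by 0.20. Fkbp4, the co-chaperone that competes with Fkbp5, fell to 54.2 ± 0.0829 CPM in thrombocytopenic libraries, against 61.3 ± 1.99 CPM in control libraries (log2 fold change -0.18). Among the FK506-binding proteins other than Fkbp5, 3 of 11 tested genes fell and none rose (1 rose without thrombocytopenic replicate 2), or 27.3% called, with Fkbp9 at -0.30 and Fkbp2 at -0.11, a call lost in 4 of 15 other settings.

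Genes for other steroid receptors and for enzymes and exporters that set the hormone's level in the cell ranged from no reads to more than 100 CPM. Nr3c2, the mineralocorticoid receptor that also binds glucocorticoids, had 0 reads over the thrombocytopenic libraries and 7 over the control libraries. Hsd11b1, which regenerates active hormone, averaged 0.333 ± 0.037 CPM in thrombocytopenic and 0.397 ± 0.122 CPM in control libraries, and was not called. H6pd, which supplies its cofactor, fell to 137 ± 2.08 CPM in thrombocytopenic libraries, against 209.6 ± 2.71 CPM in control libraries (log2 fold change -0.61; edgeR adjusted p = 6.31e-25). Of the drug and steroid exporter genes, Abcb1a fell by 1.44 on the log2 scale, and Abcb1b was at 0.11, a call lost in 5 of 15 other settings. These 2 genes are close copies and could share reads. Cyp11a1, the first enzyme of steroid synthesis, had 1 read in the thrombocytopenic and 68 in the control libraries, a control to thrombocytopenic ratio of 78.4 (95% counting interval 13.6 to 3140, which covers counting error only). The basophil and mast cell genes Mcpt8, Prss34, Ms4a2 and Gata2 were lower in the same libraries and Ccr3 higher, and their part in this difference was not tested. Of the 7 tested genes in this list 1 rose and 3 fell, or 57.1% called against 45.1% of all genes.

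The kinase relatives, activators and substrates of Sgk1 had smaller fold changes, in both directions. Of 20 tested genes of 24 listed, 7 rose and 4 fell (7 fell with upper quartile scaling), or 55% called against 45.1% of all genes, and 1, Ndrg1, changed by at least 1.5-fold. Sgk3, the family member with a phosphoinositide-binding domain, rose to 285 ± 7.47 CPM in thrombocytopenic libraries, against 253 ± 6.26 CPM in control libraries (log2 fold change 0.17, SE 0.028). Sgk2 had 0 reads and 1 read. Pdpk1, the kinase that activates Sgk1, rose by 0.36 on the log2 scale. Of the substrates' genes, Ndrg1 rose to 20.8 ± 0.771 CPM, against 11.9 ± 0.650 CPM (log2 fold change 0.82, SE 0.066), Foxo3 rose by 0.37, and the ubiquitin ligase gene Nedd4l was at -0.17. Transcript levels carry no measure of kinase activity. Among genes of osmotic and amino acid stress, which can also raise Sgk1, 2 of 10 tested rose and 4 fell, or 2 fell without thrombocytopenic replicate 3 or control replicate 3, so that 60% were called. Mapk14, the p38 kinase, rose by 0.51 and the taurine transporter gene Slc6a6 was at -0.33. Slc38a1 and Slc38a2, amino acid transporters, were at -0.43 and 0.29. Nfat5, the osmotic stress factor, was at -0.06 and did not pass the test.

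Relatives of Per1, Klf9 and Tsc22d3 differed in both directions. In the circadian list 9 of 18 tested genes rose and 3 fell, or 66.7% called against 45.1% of all genes. Bhlhe41, a clock repressor, fell to 12.9 ± 0.496 CPM in thrombocytopenic libraries, against 45.1 ± 1.54 CPM in control libraries (log2 fold change -1.81, SE 0.055; edgeR adjusted p = 1.07e-33), and its relative Bhlhe40 was at -1.41. Nfil3 rose by 0.67, Cry2 by 0.51, Cry1 by 0.42 and Clock by 0.31. Of 10 tested Kruppel-like factors 4 rose and 4 fell, or 80% called, with Klf7 at 0.74, Klf6 at 0.51, Klf3 at 0.35 and Klf10 at -0.87. Tsc22d1, a relative of Tsc22d3, rose to 31.1 ± 1.15 CPM, against 18.9 ± 0.532 CPM (log2 fold change 0.71), and Tsc22d2 rose by 0.17.

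**Figure D4:**
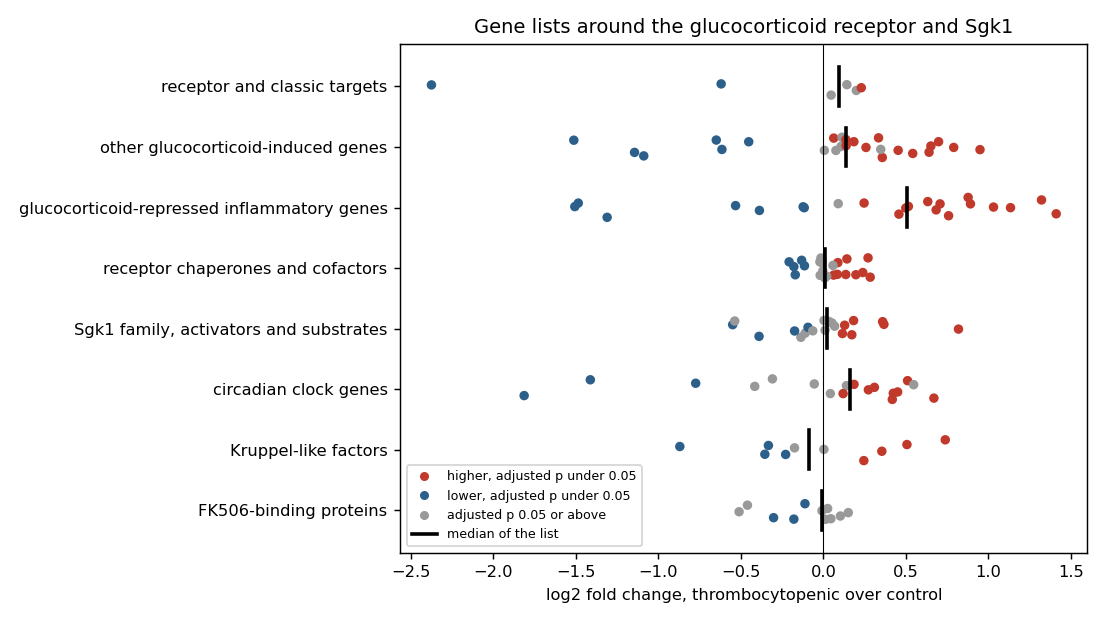
Log2 fold changes (horizontal, thrombocytopenic over control) of the tested genes of 8 lists; each point is a gene, spread vertically for legibility, red where called higher, blue lower and grey neither, and the black line is the median of the list. The lists are the 6 genes, the other glucocorticoid-induced genes, the repressed inflammatory genes (median 0.51), the chaperones and cofactors, the genes around Sgk1, the circadian genes, the Kruppel-like factors (median -0.09) and the FK506-binding proteins; Sgk1 lies at -2.38, and the list of steroid receptors, enzymes and exporters, with Cyp11a1 at -5.79, is not drawn.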

How the data were processed

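Per the labels' protocols, polyadenylated RNA was made into stranded TruSeq libraries and read on a NovaSeq. The tools named are Salmon 1.5.2, featureCounts in Subread 2.0.1, STAR 2.7.9a and fastp 0.23.1, per the submitters' processing notes. What each did, and which build, annotation and strand setting were used, is not given in the sources used here, so overlapping, antisense and near-copy genes are uncertain. The files hold raw gene counts as the authors deposited them (56832 symbols, 34221 with no count). Groups and replicate numbers come from the labels.

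With filterByExpr at a minimum count of 10 and a total of 15, 12488 genes remained and were fitted with edgeR 4.0.16 in R 4.3.3 (TMM, quasi-likelihood test with the robust option, two-sided, no covariates, Benjamini-Hochberg adjustment over all genes, threshold 0.05). The SE of a log2 fold change is its size over the root of the F statistic. CPM are scaled by TMM factors, marker sums by library totals; log2 CPM for profile distances used a prior count of 2. Counting variation is the mean of 1 over the square root of the count. The fit was checked on simulated counts of this comparison. The members and lists were chosen with earlier results of these data known. Named genes are the members, up to 4 of each list by smallest p, a short fixed set and the nearest profiles; others were named after their values were seen, and some genes that meet the rule are not reported here. As alternatives, the fit was repeated without each library, with a replicate block, with other thresholds and filters, without the robust option, with limma-voom (limma 3.58.1) and DESeq2 1.42.0, and with scaling by RLE, upper quartile or library totals.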

Additional observations from a re-analysis of the deposited data

How the results depend on the processing

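Across 15 other settings, Sgk1 stayed between -2.40 and -2.35, Fkbp5 between -0.67 and -0.56, Nr3c1 between 0.21 and 0.25 and Per1 between 0.08 and 0.18 (log2 fold change). Leaving out 1 library at a time moved Tsc22d3 between 0.14 and 0.29, and without thrombocytopenic replicate 2 the count of the 6 genes called higher was 2 instead of 1. It moved Klf9 between -0.06 and 0.12, with a negative value without thrombocytopenic replicate 3 (-0.064) and without control replicate 1 (-0.050). The count of genes called was 5626, and 1203 with at least 1.5-fold as well. Same-numbered libraries showed no pairing in the counts: their deviations from the group means correlated at -0.0383, -0.0892 and -0.0127 across genes. Differently numbered libraries of the groups correlated at -0.0588 to 0.0883. These values cannot exclude that same-numbered libraries were collected or handled together. With a replicate block 5402 genes were called. Of the named genes of other lists and the counts over those lists, 1602 values were on the same side or within 1.5 times, 29 lost their call, 1 gained one, 10 counts moved further and 0 reversed. With upper quartile scaling, 7 instead of 4 genes around Sgk1 were called lower. The depth limits Klf9, Nr3c2, Hsd11b1, Zbtb16 and Cyp11a1, which had few reads. The files hold gene totals, so no start site or isoform could be compared.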
